A study of Drosophila melanogaster with 90 samples.

Results

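Heads of virgin female fruit flies (Drosophila melanogaster) were compared 12 h after and within 1 h of the morning start of a time series, so that the comparison follows a day in females that had not mated. The libraries were taken by their labels: the 3 virgin libraries of 12 h against the 6 virgin libraries of 0.5 h and 1 h (3 each), 9 of the 87 libraries analysed. The series set females mated to wildtype males and females mated to SP-null males, which transfer no Sex Peptide, beside virgins frozen in parallel at 10 time points, and its stated design repeated the whole series 3 times, as repeats A, B and C. All groups were labelled Canton-S, a laboratory wild-type strain, and were kept at 25 °C on yeast and glucose food in a cycle of 12 h of light and 12 h of darkness with lights on at 8 AM. Mating took place between 8 AM and 11 AM and times were counted from it, so the 0.5 h and 1 h libraries fall in the light of the morning and the 12 h libraries fall around or after lights-off. Whole heads were collected from flash-frozen flies, and poly(A) RNA was made into stranded libraries. The labels give no age of the flies and no number of heads per library. Clock time, light, feeding, sleep and 12 h of further age change together between the groups and cannot be told apart. In whole heads, fewer cells of a type and less RNA per cell cannot be told apart either.

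The fly circadian clock is a feedback loop of transcription. The activators CLK and CYC switch on per and tim, whose proteins gather in the evening and later repress CLK and CYC. A second loop holds vri, whose product represses Clk, and Pdp1, whose product activates it. CRY, a blue-light receptor, makes light break down the TIM protein. Heads are a classical tissue for this loop because photoreceptors, glia and clock neurons all run it.

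Total counts were 18502071 to 23574265 per library at 12 h and 15411046 to 20979668 in the first hour. Levels are given as CPM, counts scaled to a common library total, scaled between libraries with edgeR's TMM factors, and changes as log2 fold changes of 12 h over the mean of 0.5 h and 1 h, with the standard error (SE) of the fit. A gene is said to rise or fall where edgeR's quasi-likelihood test gave a Benjamini-Hochberg adjusted p under 0.05 over all genes tested. Defining markers of head tissue were present at both times. The summed level of 10 neuronal markers, elav and nSyb among them, was 4649 to 4834 CPM at 12 h and 4390 to 5028 CPM in the first hour, and none of the 10 changed. Both first-hour libraries of repeat C stood apart from the other 4: a principal component holding 12.5% of the variance of the 9 libraries placed them at -13.3 and -9.74, against 3.27 to 10.1 for repeats A and B. They also had the highest summed level of 10 head fat body markers, a list that holds the yolk protein genes Yp1, Yp2 and Yp3. This sum ran from 101531 to 119333 CPM at 12 h and from 123699 to 242941 CPM in the first hour. Of the 10 markers, 1 rose and 2 fell, so the sum need not follow the amount of fat body RNA. Results that rest on these libraries are given without them as well.

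Of 9020 genes tested, 2280 (25.3%) changed between 12 h and the first hour: 1126 (12.5%) rose and 1154 (12.8%) fell. Without the first-hour libraries of repeat C, 1982 genes changed, 1816 of them also among the 2280. Most changes were small, with a median absolute log2 fold change of 0.365 among the called genes, and the median over all genes was 0.00707. At least a 2-fold rise was called for 54 genes (0.599%) and at least a 2-fold fall for 117 (1.3%). The 12 h library lay above both first-hour libraries of its own repeat in all 3 repeats for 975 of the 1126 genes that rose, and below them for 1042 of the 1154 that fell. Over all genes tested, 16.2% lay above and 16.3% below in this way. The calls came from these same libraries, so high shares among called genes follow in part from the calling and are no separate support. The 1 h and 0.5 h libraries were not told apart by the same fit: no gene passed, 600 had an unadjusted p under 0.05, and DESeq2 also called none.

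**Figure D1:**
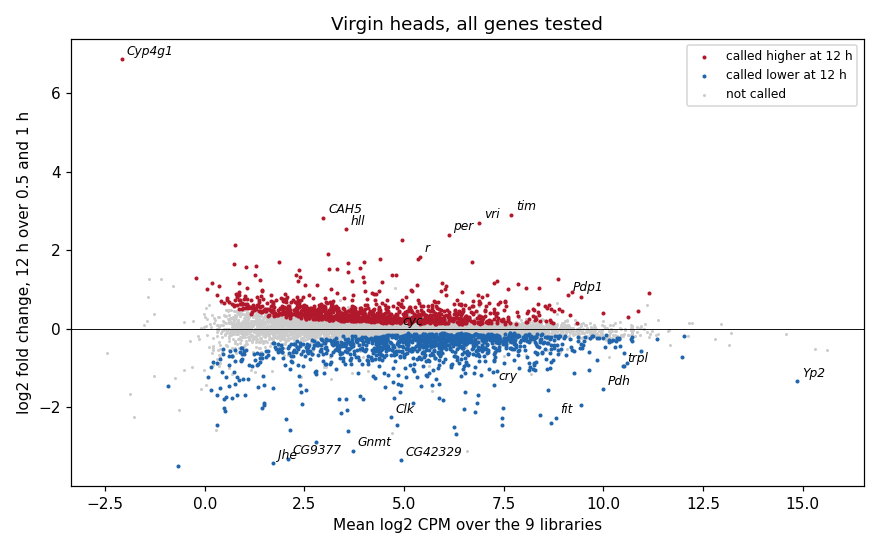
Each point is 1 of the 9020 genes tested, placed by its mean log2 CPM over the 9 virgin libraries (horizontal axis) and its log2 fold change of 12 h over 0.5 h and 1 h (vertical axis). Red points rose and blue points fell at an adjusted p under 0.05, and tim, vri and per lie near the top, at 2.90, 2.69 and 2.40.

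The core clock genes made up some of the strongest changes in the whole table. Of the 8 listed, 5 rose (62.5%), 2 fell (25%) and cyc did not pass, with the same counts under every alternative tried. The shares over all genes were 12.5% and 12.8%. tim, which encodes the light-sensitive partner of PER, stood at 885, 764 and 721 CPM at 12 h, against 90.7, 96.6 and 120 CPM at 0.5 h and 102, 113 and 112 CPM at 1 h. All 3 libraries at 12 h lay far above all 6 of the first hour, and repeat A was the highest at 12 h and the lowest at 0.5 h. The rise was 7.48-fold (log2 fold change 2.90, SE 0.14, edgeR adjusted p = 7.02e-13). The gene lies on chromosome arm 2L, from 3493986 to 3508119 on the minus strand in the Ensembl BDGP6 annotation, and a snoRNA gene lies within it on the same strand.

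vri, which encodes the repressor of Clk, stood at 441, 393 and 394 CPM at 12 h, against 56.1, 54.1 and 59.9 CPM at 0.5 h and 75.8, 70.6 and 65.4 CPM at 1 h. Its rise was 6.46-fold, with the second smallest p of the clock genes after Clk (log2 fold change 2.69, SE 0.10, edgeR adjusted p = 1.56e-15). per, which encodes the partner of TIM in repression, stood at 243, 167 and 225 CPM at 12 h, against 41.2, 29.1 and 37.2 CPM at 0.5 h and 51.2, 44.7 and 38.9 CPM at 1 h. All 3 libraries at 12 h were above all 6 of the first hour, with repeat B lowest at 12 h and at 0.5 h, and the rise was 5.27-fold. vri lies on 2L from 5288944 to 5311223 and per on X from 2685580 to 2692780, both on the plus strand.

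Pdp1, which encodes the activator of the second loop, rose less. It stood at 835, 867 and 757 CPM at 12 h, against 488, 461 and 471 CPM at 0.5 h and 456, 423 and 424 CPM at 1 h, a rise of 1.81-fold (SE 0.08 on the log2 scale). cwo, which encodes a repressor that competes with CLK and CYC for their DNA sites, stood at 126, 132 and 111 CPM at 12 h, against 65.1 to 89.1 CPM in the first hour. It rose 1.52-fold, the smallest change among the 5 that rose.

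Clk moved the opposite way. It stood at 9.17, 9.66 and 8.23 CPM at 12 h, against 46.8, 41.7 and 44.8 CPM at 0.5 h and 39.7, 45.1 and 39.8 CPM at 1 h, a fall of 4.77-fold (log2 fold change -2.25, SE 0.08, edgeR adjusted p = 7.60e-16). Replicate error was small at both times: 9.02 ± 0.722 CPM at 12 h (SD, n = 3) and 43 ± 2.99 CPM in the first hour (SD, n = 6). cry, the blue-light receptor gene, stood at 74.8, 84.4 and 78.3 CPM at 12 h, against 199 to 224 CPM in the first hour, a fall of 2.68-fold (SE 0.06 on the log2 scale). cyc, the partner of Clk, stood at 29.5, 27.6 and 28.5 CPM at 12 h and between 26.2 and 31.2 CPM in the first hour. Its log2 fold change was -0.01 (SE 0.06) and the groups overlapped. Clk lies on 3L from 7763233 to 7775603 on the minus strand, where it overlaps CG32371 on the same strand, and cry lies on 3R from 19212154 to 19215442, where it overlaps lncRNA:CR46393 on the same strand. Whether reads from such overlaps were split or dropped in counting is not known, and the same holds below for fit with asRNA:CR45046, Kr-h1 with CG45075, Atg101 with S6KL and Cipc with CG14556.

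**Figure D2:**
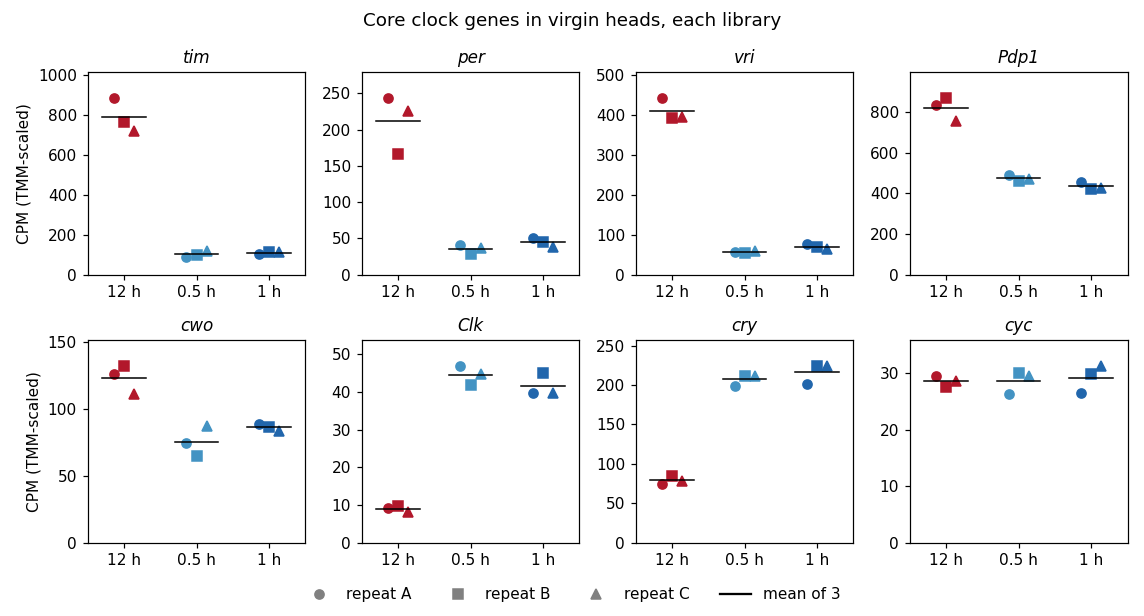
Each point is 1 virgin library, in TMM-scaled CPM on a linear axis from 0, with 12 h left of 0.5 h and 1 h, point shapes for the repeats and a line at the mean of 3. The groups are apart for 7 genes and overlap for cyc, where all 9 libraries lie between 26.2 and 31.2 CPM.

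The other virgin time points place these changes on a course through the day. Mean tim was 102, 109, 128, 176, 231, 277, 334, 522, 790 and 75.6 CPM at the 10 successive times, which run from 0.5 h through 6 h, 8 h and 12 h to 24 h (n = 3, and n = 2 at 6 h). Mean Clk was 44.4, 41.5, 43.1, 32.2, 28.9, 28.4, 27, 17.6, 9.02 and 45.7 CPM at the same times. Both courses thus had their extreme at 12 h among the times sampled, and no time between 12 h and 24 h was sampled. cyc stayed between 27.9 and 30.9 CPM on average throughout. At 24 h, 386 genes (4.28%) differed from the first hour, 143 higher (1.59%) and 243 lower (2.69%). Among the clock genes, vri alone passed there, with a log2 difference of -0.73 (edgeR adjusted p = 0.00122), and tim had a log2 difference of -0.48 (adjusted p = 0.0738). The 24 h comparison uses the same 6 first-hour libraries. Its count was 628 with the replicate block, 45 without repeat A, 3 without repeat B and 37 without repeat C.

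**Figure D3:**
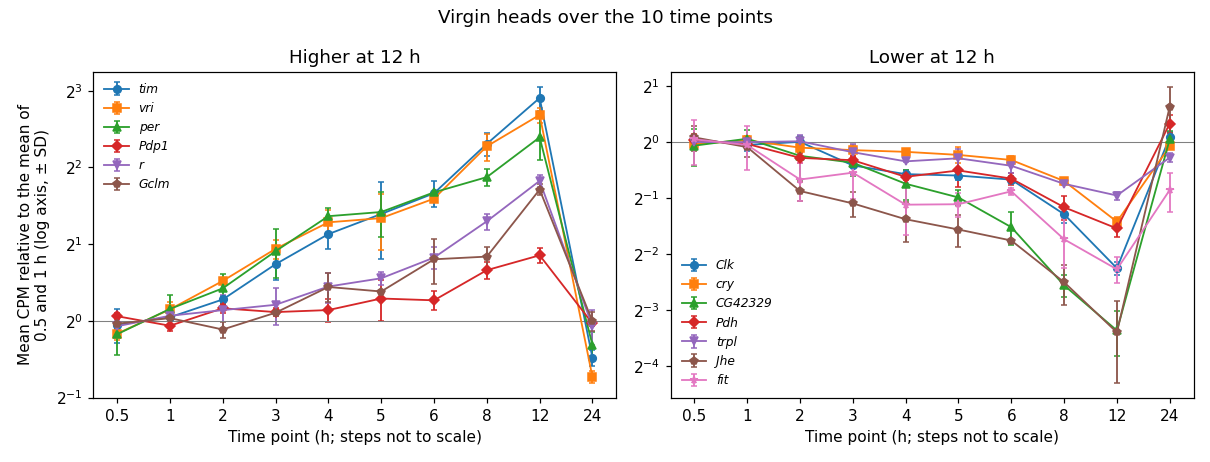
Mean CPM of each gene in virgin heads divided by its mean at 0.5 h and 1 h, on a log axis, over the 10 time points (steps not to scale); bars show the SD, n = 3, and n = 2 at 6 h. Genes that rose at 12 h are on the left and genes that fell on the right, and at 24 h fit averaged 427 CPM, against 799 CPM at 0.5 h and 745 CPM at 1 h.

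Genes that act on clock proteins or under the clock changed at about the share of all genes. Of 13 kinases, phosphatases and turnover factors, 1 rose (7.69%) and 2 fell (15.4%). Only 1 fell without the 12 h library of repeat B. The riser was Fbxl4, an F-box gene, at 175, 160 and 179 CPM at 12 h against 121 to 147 CPM in the first hour, 1.31-fold higher. Of 20 output and pacemaker signalling genes, 2 rose (10%) and 3 fell (15%). Usp8, which encodes a ubiquitin protease, rose 1.82-fold, at 99.7, 101 and 94.3 CPM at 12 h against 52.5 to 57.1 CPM in the first hour. qsm, which encodes a membrane-anchored protein of the light response, fell to 35.8, 30.3 and 31.5 CPM at 12 h, against 46 to 54.8 CPM in the first hour.

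Outside the clock lists, the genes with the largest rises covered several enzymes. CAH5, a carbonic anhydrase gene on 3R from 31262598 to 31263878, stood at 48, 20.9 and 24.7 CPM at 12 h, against 2.06 to 6.58 CPM in the first hour. Its rise of 7.07-fold had a wide error (SE 0.39 on the log2 scale), since the 12 h library of repeat A held about as much as the other two together. r, which encodes the enzyme for the first steps of pyrimidine synthesis, stood at 97.0, 92.4 and 103 CPM at 12 h, against 25.0 to 29.5 CPM in the first hour, a rise of 3.55-fold (SE 0.10 on the log2 scale, edgeR adjusted p = 4.59e-13). Gclm, the regulatory subunit of the enzyme that limits glutathione synthesis, stood at 240, 228 and 218 CPM at 12 h, against 65.8 to 78.7 CPM in the first hour, a rise of 3.27-fold. Both sets of libraries were tight and far apart.

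The named genes of largest rise also included hll at 5.79-fold, CG10516 at 4.82-fold, Mco1 (a multicopper oxidase) at 3.75-fold, shf (which helps Hedgehog spread) at 3.42-fold, CG3270 at 3.39-fold and js at 2.56-fold. In each of these the 3 libraries at 12 h were above all 6 of the first hour. That was part of the rule that chose genes by fold change, and it held for 1006 genes (11.2%) of the table. hll was the most variable of them, at 37.9, 31.2 and 51.3 CPM at 12 h and 3.29 to 12.2 CPM in the first hour.

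The largest falls went to lower levels. CG42329, on 2L from 1219293 to 1229802, stood at 8.44, 5.03 and 5.90 CPM at 12 h, against 55.6, 55 and 80 CPM at 0.5 h and 60.5, 71.8 and 75.5 CPM at 1 h, a fall of 10.2-fold (SE 0.21 on the log2 scale, edgeR adjusted p = 8.88e-11). Its virgin mean fell step by step from 2 h on, through 39.7 CPM at 4 h and 11.3 CPM at 8 h, and was 68.9 CPM at 24 h. CG9377 stood at 0.737 to 1.08 CPM at 12 h and 5.86 to 11.9 CPM in the first hour, 9.88-fold lower. CG16798 stood at 1.64 to 1.97 CPM at 12 h and 10.2 to 16.2 CPM in the first hour, 7.33-fold lower. CG31321 and CG14329, which were among the smallest p of the table, fell by 1.76 and 1.79 on the log2 scale. CG10513 fell 6.04-fold, CG11741 5.95-fold, CG10621 5.46-fold and CG3348 5.46-fold. In each of these the groups did not overlap, which was part of the rule that chose genes by fold change. Over the table, 1054 genes (11.7%) had all 3 libraries at 12 h below all 6.

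A pair of calls in these lists depended on few libraries. Gnmt, a methyltransferase gene that uses up the methyl donor S-adenosylmethionine, stood at 2.73, 4.12 and 6.39 CPM at 12 h. In the first hour it stood at 60 and 139 CPM in repeat C and at 7.88 to 18.8 CPM in repeats A and B. Its log2 fold change was -3.11 (SE 0.90, edgeR adjusted p = 0.0148), and without the first-hour libraries of repeat C it was -1.42 with an adjusted p of 0.119. The call was also lost without the 12 h library of repeat A or of repeat B, with adjusted p-values of 0.0745 and 0.0518. Cyp4g1, an oenocyte enzyme of cuticular hydrocarbon synthesis, had 15.4 CPM in the 12 h library of repeat C and 0 to 0.104 CPM in the other 8 libraries. It was called higher (edgeR adjusted p = 0.0123) and overlaps CG32816 on the same strand, but it did not enter the test when that library was left out.

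Of 28 phototransduction genes, 4 rose (14.3%, against 12.5% of all genes) and 6 fell (21.4%, against 12.8%). Without the first-hour libraries of repeat C, 2 rose and 10 fell, and 2 rose without the 0.5 h, the 1 h or the 12 h library of repeat C alone. trpl, which encodes a light-activated cation channel, stood at 971, 886 and 904 CPM at 12 h, against 1690 to 1906 CPM in the first hour, a fall of 1.94-fold (SE 0.08 on the log2 scale). laza, a phosphatase of the signalling lipid cycle, stood at 35.1, 29.3 and 36.9 CPM at 12 h, against 54.9 to 66.2 CPM in the first hour. inaD, the scaffold that holds the cascade together, stood at 328, 335 and 307 CPM at 12 h, against 403 to 531 CPM in the first hour. In all 3 genes the highest 12 h library was under the lowest first-hour one.

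Rh5 and Rh6, the rhodopsins of the R8 photoreceptors, went the other way. Rh5 stood at 222, 217 and 218 CPM at 12 h, against 121 to 160 CPM in the first hour, a rise of 1.55-fold, and Rh6 at 349, 329 and 342 CPM, against 213 to 282 CPM, a rise of 1.37-fold. Mean Rh5 was 137 CPM at 0.5 h, 165 CPM at 3 h, 190 CPM at 6 h and 142 CPM at 24 h. Of 7 retinoid genes, 1 rose and 1 fell (14.3% each), near the 12.5% and 12.8% of all genes. With 1 library left out 0 to 1 rose and 1 fell. Pdh, a retinol dehydrogenase of eye pigment cells, fell to 560, 481 and 469 CPM at 12 h, against 1393 to 1629 CPM in the first hour, a fall of 2.91-fold (edgeR adjusted p = 5.20e-11). The summed level of 10 eye markers was 33636 to 35145 CPM at 12 h and 35091 to 39883 CPM in the first hour, and its part in these changes was not tested.

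Among genes that neuronal activity switches on there were more falls than rises. Of 12 listed, 2 rose (16.7%) and 5 fell (41.7%), against 12.5% and 12.8% of all genes. Hr38, which encodes a nuclear receptor used as a mark of recent neuronal activity, stood at 11.6, 10.5 and 12.3 CPM at 12 h, against 29.1 to 35 CPM in the first hour, a fall of 2.82-fold (SE 0.16 on the log2 scale). sr, the fly EGR gene, stood at 18.3, 18 and 19.2 CPM at 12 h, against 26.7 to 33.5 CPM in the first hour, a fall of 1.59-fold. Atf3, which encodes a stress-responsive transcription factor, rose 1.36-fold, at 118, 113 and 94.8 CPM at 12 h against 79 to 82.2 CPM in the first hour. The rise of hry, a repressor gene, was 1.31-fold and was lost without the 12 h library of repeat A (adjusted p = 0.241) or the 0.5 h library of repeat B (adjusted p = 0.0663).

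The release and channel machinery of neurons held no calls. None of 25 synaptic release genes passed edgeR's test or DESeq2's, 0 had an unadjusted p under 0.05, and their log2 fold changes ran from -0.12 to 0.18. None of 18 voltage-gated and leak channels passed either test, 2 had an unadjusted p under 0.05, and their log2 fold changes ran from -0.11 to 0.19. One channel gene passed when the 0.5 h or the 1 h library of repeat A was left out. Of 21 neuropeptide genes, 2 rose and 2 fell (9.52% each), below the 12.5% and 12.8% of all genes. Each count moved between 1 and 4 as single libraries were left out. With the replicate block 4 fell.

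Of 25 genes of monoamine synthesis, transport and reception, 2 rose (8%) and 3 fell (12%), at or below the shares of all genes. Only 1 rose without the 12 h library of repeat B. ple, which encodes tyrosine hydroxylase, the rate-limiting enzyme of dopamine synthesis, stood at 58.3, 52.6 and 50.3 CPM at 12 h, against 180, 152 and 212 CPM at 0.5 h and 171, 152 and 165 CPM at 1 h. The fall was 3.20-fold (log2 fold change -1.68, SE 0.18, edgeR adjusted p = 4.45e-07), and mean ple was already 53.6 CPM at 8 h. The enzymes that recycle histamine and dopamine through their conjugates with beta-alanine both fell: t stood at 270, 278 and 250 CPM at 12 h against 369 to 429 CPM in the first hour, and e at 28.5, 24.5 and 37.5 CPM against 43.8 to 56 CPM. The call of e was lost without repeat A (adjusted p = 0.135). 5-HT2A, a serotonin receptor gene, rose 1.37-fold.

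**Figure D4:**
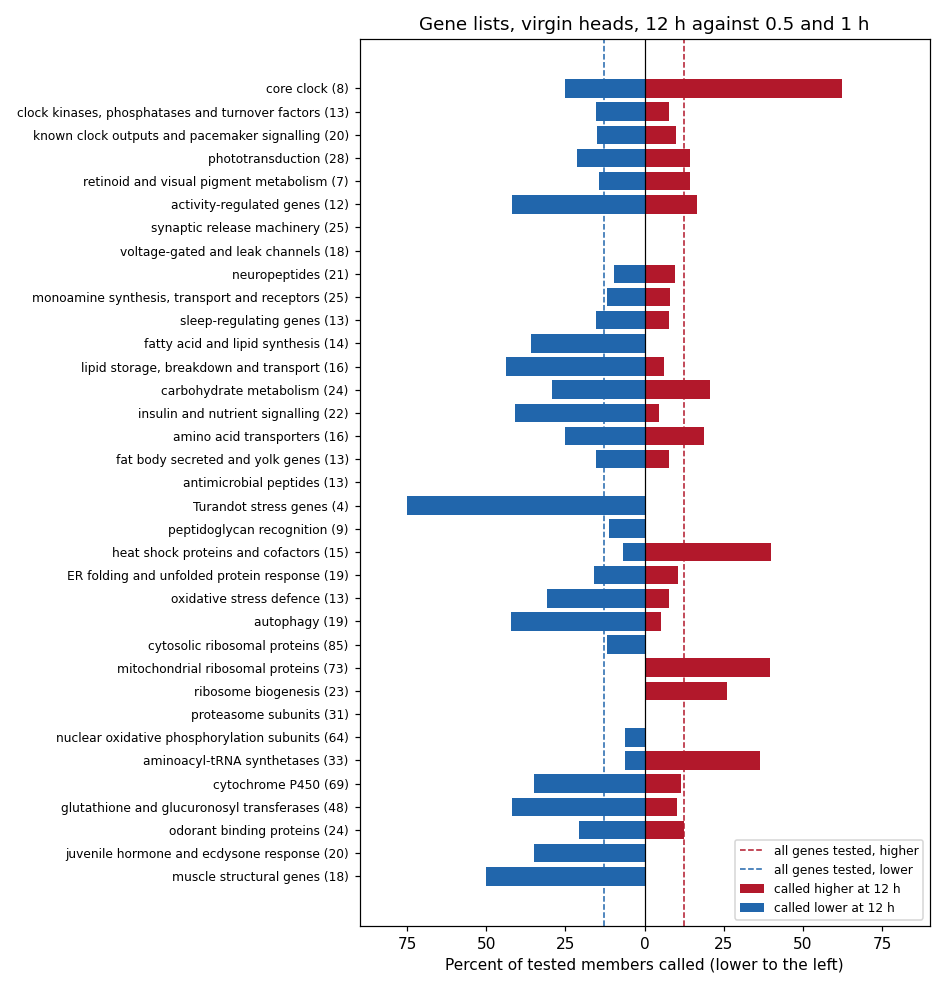
Bars give the share of each list's tested members (number in brackets) that rose to the right and fell to the left between 12 h and the first hour, in percent. Dashed lines mark the shares over all 9020 genes tested, 12.5% and 12.8%, and the core clock reaches farthest to the right, at 62.5%, and the Turandot genes farthest to the left, at 75%.

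The lists of lipid use held more falls than rises. Of 16 genes of lipid storage, breakdown and transport, 1 rose (6.25%) and 7 fell (43.8%), against 12.5% and 12.8% of all genes. The falls numbered 5 without the first-hour libraries of repeat C. Only 4 fell without the 12 h library of repeat C. bmm, which encodes the main triglyceride lipase of lipid droplets, stood at 45.3, 41.3 and 63.1 CPM at 12 h, against 99.3, 103 and 159 CPM at 0.5 h and 96, 92.1 and 142 CPM at 1 h, a fall of 2.30-fold (SE 0.23 on the log2 scale). Repeat C was highest at each of the 3 times. Apoltp, a lipid transfer particle gene, and whd, the carnitine palmitoyltransferase that brings fatty acids into mitochondria, fell by 0.78 and 0.64 on the log2 scale. Lip4, a lipase gene, was the single riser, at 106, 104 and 78.6 CPM at 12 h against 40.5 to 62.1 CPM in the first hour.

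Of 14 genes of fatty acid synthesis none rose and 5 fell (35.7%, against 12.8% of all genes). Only 3 fell without both first-hour libraries of repeat C, without its 0.5 h library alone or without the 12 h library of repeat B. In the first of these alternatives 1 rose. AcCoAS, which makes acetyl-CoA from acetate, stood at 1142, 1065 and 945 CPM at 12 h, against 1485 to 2389 CPM in the first hour, and Elovl7, a fatty acid elongase gene, at 94.1, 88.9 and 80.5 CPM, against 102 to 133 CPM. Of 24 carbohydrate genes, 5 rose (20.8%) and 7 fell (29.2%), against 12.5% and 12.8% of all genes. Without the first-hour libraries of repeat C, 6 rose and 5 fell, and 2 rose without the 12 h library of repeat A. Srg1 stood at 1.08, 1.78 and 1.35 CPM at 12 h, against 5.03 to 9.81 CPM in the first hour, a fall of 4.92-fold (SE 0.37 on the log2 scale). fbp, which encodes fructose-1,6-bisphosphatase of gluconeogenesis, stood at 188, 176 and 188 CPM at 12 h, against 278 to 502 CPM in the first hour, a fall of 1.95-fold.

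Of 22 insulin and nutrient signalling genes, 1 rose (4.55%) and 9 fell (40.9%), against 12.5% and 12.8% of all genes. The falls numbered 5 without the first-hour libraries of repeat C, 5 without its 0.5 h or its 12 h library alone, and 4 without the 12 h library of repeat A. Thor, which encodes the 4E-BP repressor of translation, stood at 162, 190 and 210 CPM at 12 h, against 347, 414 and 434 CPM at 0.5 h and 315, 364 and 405 CPM at 1 h, a fall of 2.02-fold (SE 0.11 on the log2 scale). foxo, the transcription factor that insulin signalling holds back, stood at 84.7, 78.8 and 92.9 CPM at 12 h, against 100 to 127 CPM in the first hour. Ilp6, an insulin-like peptide gene of the fat body, rose 1.5-fold, at 56.6, 61 and 56.3 CPM at 12 h against 34.8 to 40.9 CPM in the first hour. Of 19 autophagy genes, 1 rose (5.26%) and 8 fell (42.1%), and 5 fell without the first-hour libraries of repeat C. Atg2, which carries lipid to the growing autophagosome, stood at 109, 115 and 118 CPM at 12 h, against 157 to 224 CPM in the first hour, and Atg101, of the initiation complex, at 42.4, 44.3 and 42 CPM, against 53.5 to 60.8 CPM.

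Some of the secreted fat body products that changed were abundant transcripts. Of 13 fat body and yolk genes, 1 rose (7.69%) and 2 fell (15.4%), against 12.5% and 12.8% of all genes. DESeq2 called 5 lower, and 4 fell with the replicate block. Without a single library, 5 fell (1 h, repeat A) or 4 fell (0.5 h, repeat A or B), and 0 rose without the 0.5 h or the 12 h library of repeat A. fit, which encodes a female-enriched satiety peptide of the fat body, stood at 170, 180 and 131 CPM at 12 h, against 583, 801 and 1013 CPM at 0.5 h and 519, 816 and 901 CPM at 1 h, a fall of 4.81-fold (SE 0.28 on the log2 scale, edgeR adjusted p = 3.47e-06). Without the first-hour libraries of repeat C its log2 fold change was -2.08, against -2.27 with them. Yp2, a yolk protein gene, stood at 13650, 17836 and 17703 CPM at 12 h, against 34966, 33191 and 59306 CPM at 0.5 h and 29463, 37687 and 54774 CPM at 1 h. Its log2 fold change was -1.34 (SE 0.26), and -1.04 without those libraries. Yp1 and Yp3, its paralogs, had log2 fold changes of -0.54 and -0.52 and did not pass (adjusted p = 0.0707 and 0.113). Yp1 passed with the replicate block (adjusted p = 0.0461) and without the 1 h library of repeat A (0.0331).

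Stress and defence lists went different ways. Of only 4 Turandot genes, which encode secreted stress peptides, 3 fell (75%, against 12.8% of all genes) and none rose, with or without repeat C. TotA stood at 26.4, 29.1 and 19.4 CPM at 12 h, against 116, 111 and 247 CPM at 0.5 h and 110, 98.3 and 174 CPM at 1 h, 5.69-fold lower. TotC, its neighbour on 3R, stood at 43.7, 51.2 and 35 CPM at 12 h, against 122 to 337 CPM in the first hour, and TotX at 15.9, 15.9 and 8.81 CPM, against 23.5 to 40.8 CPM. TotA and TotC are close paralogs and could share reads. None of 13 antimicrobial peptide genes passed edgeR's test, 1 had an unadjusted p under 0.05, 2 passed DESeq2's (both lower), and 1 was lower without the 0.5 h library of repeat A or of repeat B. DptB, an antimicrobial peptide gene, stood at 6.92, 11.4 and 18.1 CPM at 12 h and at 12.0 to 61.2 CPM in 5 first-hour libraries, with 415 CPM in the 0.5 h library of repeat B.

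Of 15 heat shock genes and cofactors, 6 rose (40%) and 1 fell (6.67%), against 12.5% and 12.8% of all genes. The rises numbered 3 without the first-hour libraries of repeat C, and 2 without the 12 h library of repeat A. Hsp83, which encodes the fly Hsp90, stood at 1148, 813 and 595 CPM at 12 h, against 288 to 443 CPM in the first hour, a rise of 2.41-fold (SE 0.13 on the log2 scale). Hsc70-5, the mitochondrial Hsp70, rose 1.41-fold with little spread, at 383, 374 and 367 CPM at 12 h against 253 to 283 CPM in the first hour. l(2)efl, a small heat shock protein gene, fell to 30.4, 26.1 and 27.9 CPM at 12 h, against 39.8 to 57.3 CPM in the first hour. Of 19 folding genes of the endoplasmic reticulum, 2 rose (10.5%) and 3 fell (15.8%), near the shares of all genes. With 1 library left out 2 to 3 rose and 1 to 4 fell. Herp, which takes part in the removal of misfolded proteins, rose 1.29-fold and Pdi, a disulfide isomerase, fell by 0.55 on the log2 scale.

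Of 73 mitochondrial ribosomal protein genes, 29 rose (39.7%, against 12.5% of all genes) and none fell. The median log2 fold change was 0.154 over the list, against 0.007 over all genes. The rises numbered 22 without the first-hour libraries of repeat C and 11 to 17 when a whole repeat was left out. mRpS23 stood at 8.83, 8.49 and 8.89 CPM at 12 h, against 5.09 to 7.21 CPM in the first hour, mRpL15 at 16.4, 16.6 and 15.2 CPM, against 10.2 to 13.3 CPM, and mRpL20 at 13.8, 14.4 and 13.1 CPM, against 9.28 to 11.5 CPM. These rises of 1.37, 1.36 and 1.35-fold were small and the groups did not overlap. Of 85 cytosolic ribosomal protein genes, none rose and 10 fell, with a median log2 fold change of -0.171. That number depended on single libraries: it was 38 without the 1 h library of repeat A, 18 without the 0.5 h library of repeat A, 12 without the 0.5 h library of repeat C, and between 1 and 4 without any 1 of the other 6. Its share of 11.8% lay near the 12.8% of all genes. It was 4 without both first-hour libraries of repeat C. DESeq2 called 20 lower.

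Of 33 aminoacyl-tRNA synthetase genes, which charge tRNAs with amino acids, 12 rose (36.4%) and 2 fell (6.06%). Of all genes, 12.5% rose and 12.8% fell. MetRS stood at 43.1, 46 and 45 CPM at 12 h, against 30.2 to 36.1 CPM in the first hour, and TrpRS-m, which serves tryptophan in mitochondria, at 24.9, 27 and 25.3 CPM, against 17.5 to 19.4 CPM. The rises numbered 7 to 9 when a whole repeat was left out. None fell without the 12 h library of repeat A, and 1 fell without that of repeat B. Of 23 ribosome biogenesis genes, 6 rose (26.1%) and none fell. The rises numbered 3 without the 12 h library of repeat A or of repeat B, and 11 with the replicate block, where 1 fell. l(2)k09022 stood at 25.7, 26 and 24.5 CPM at 12 h, against 16.9 to 22.9 CPM in the first hour. None of 31 proteasome subunit genes passed edgeR's or DESeq2's test and 0 had an unadjusted p under 0.05, with log2 fold changes from -0.14 to 0.03.

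The detoxification lists held more falls than rises. Of 48 glutathione and glucuronosyl transferase genes, 5 rose and 20 fell, against 12.5% and 12.8% of all genes. Only 3 rose without any of 5 single libraries (the 0.5 h, 1 h and 12 h libraries of repeat A, and the 1 h and 12 h libraries of repeat B). Ugt35B1, on 3R from 11168503 to 11170246, stood at 20.6, 26.6 and 20.9 CPM at 12 h, against 146, 161 and 144 CPM at 0.5 h and 118, 162 and 146 CPM at 1 h, a fall of 6.44-fold (SE 0.16 on the log2 scale, edgeR adjusted p = 2.48e-11). Its neighbour Ugt35E2 stood at 0.649, 0.407 and 0.410 CPM at 12 h, against 1.72 to 2.38 CPM in the first hour. GstZ2, of the zeta class that acts in tyrosine breakdown, stood at 14.1, 16.5 and 16.3 CPM at 12 h, against 51.7 to 62.5 CPM in the first hour, and GstD10 at 0.983 to 1.32 CPM, against 3.61 to 5.11 CPM. Members of these families are similar in sequence, and reads shared between copies may have been split or dropped in counting.

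Of 69 cytochrome P450 genes, 8 rose (11.6%) and 24 fell (34.8%), against 12.5% and 12.8% of all genes. Without the first-hour libraries of repeat C, 12 rose and 20 fell. Only 4 rose without the 12 h library of repeat C and 5 without the 1 h library of repeat A. The falls numbered 12 to 23 when a whole repeat was left out. Cyp4aa1 stood at 4.67, 4.32 and 2.83 CPM at 12 h, against 14.2 to 22.2 CPM in the first hour, 4.42-fold lower, and overlaps COX6AL on the same strand. shd, the enzyme that makes active 20-hydroxyecdysone, stood at 0.909, 0.661 and 1.88 CPM at 12 h, against 2.69 to 7.10 CPM in the first hour, and Cyp6a14 at 0.737 to 1.52 CPM, against 1.55 to 3.57 CPM.

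Hormone response genes held falls and no rises. Of 20 juvenile hormone and ecdysone genes, 7 fell (35%, against 12.8% of all genes) and none rose. Without the 12 h library of repeat B, 1 rose. Jhe, which encodes the esterase that breaks down juvenile hormone, stood at 0.476, 1.02 and 0.492 CPM at 12 h, against 7.83, 8.26 and 6.07 CPM at 0.5 h and 7.27, 6.51 and 5.84 CPM at 1 h, a fall of 10.7-fold (log2 fold change -3.42, SE 0.24, edgeR adjusted p = 1.03e-10). Its virgin mean was 3.80 CPM at 2 h, 2.36 CPM at 5 h, 1.23 CPM at 8 h and 10.8 CPM at 24 h, where it exceeded the first hour (log2 difference 0.64, edgeR adjusted p = 0.0209). Jheh2, an epoxide hydrolase gene of the same hormone's breakdown, stood at 158, 155 and 141 CPM at 12 h, against 185 to 259 CPM in the first hour. Kr-h1, which juvenile hormone induces, stood at 7.14, 7.67 and 5.49 CPM at 12 h, against 18.8 to 30.0 CPM in the first hour, a fall of 3.29-fold. Hr4, an ecdysone-responsive nuclear receptor gene, stood at 0.433, 0.356 and 0.287 CPM at 12 h, against 1.55 to 3.06 CPM in the first hour.

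The remaining lists were those of tissue content. Of 18 muscle structural genes, 9 fell (50%, against 12.8% of all genes) and none rose. The falls numbered 5 without the 12 h library of repeat B and 3 to 6 when a whole repeat was left out. With DESeq2, with the replicate block, or without the 12 h library of repeat A or B, 1 rose. TpnC73F, a troponin C gene, stood at 4.89, 6.15 and 6.15 CPM at 12 h, against 7.51 to 11.0 CPM in the first hour. The summed level of 9 muscle markers was 5148 to 6092 CPM at 12 h and 6357 to 7200 CPM in the first hour. Of 9 hemocyte markers, 4 fell (44.4%). Hml, a secreted clotting protein of blood cells, stood at 227, 195 and 193 CPM at 12 h, against 274 to 336 CPM in the first hour, and eater, a phagocytosis receptor gene, at 9.78, 8.49 and 7.62 CPM, against 13.2 to 16.8 CPM. The summed hemocyte level was 1119 to 1289 CPM at 12 h and 1378 to 1600 CPM in the first hour. Summed glial markers were 2730 to 2764 CPM at 12 h and 2749 to 3024 CPM in the first hour. Of 10 ovary markers 3 were measured, with sums of 54.5 to 58.2 CPM at 12 h and 55.5 to 58.9 CPM in the first hour, and of 10 midgut markers 2 were measured. The part of muscle, blood cell and fat body RNA in the other results was not tested.

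Mated females were used to ask how far the virgin change differs from that in mated females. These changes share no library with the virgin one, and both differences below use the same 9 virgin libraries. In a fit of all 87 libraries, 2259 genes (25%) changed in virgins, 2649 (29.4%) in SP-null-mated females and 3170 (35.1%) in wildtype-mated females. Of the 2259, 1495 also passed in SP-null-mated females, all in the same direction, which is 66.2% of the virgin and 56.4% of the SP-null-mated list. In wildtype-mated females 1443 also passed, 62 of them in the opposite direction, which is 63.9% of the virgin and 45.5% of the wildtype-mated list. The test of the difference between the changes called 1 gene (0.0111%) between virgins and SP-null-mated females, with 754 at an unadjusted p under 0.05 and 2 by DESeq2, and 626 genes (6.94%) between virgins and wildtype-mated females. The count of 626 was 81 without repeat B, 271 without repeat C and 462 without repeat A.

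Here and below, virgin CPM and fold changes are those of the fit of the virgin libraries. Mated ones are those of the fit of all 87 libraries, and each fit has its own TMM scaling. The clock genes with the largest changes moved the same way in the 3 treatments. The log2 fold change of tim was 2.90 in virgins, 2.69 in SP-null-mated and 2.88 in wildtype-mated females, and that of cry was -1.42, -1.44 and -1.32. The difference of the virgin from the wildtype-mated change of tim was 0.03 (SE 0.34). Clk and cwo passed the test of the difference against wildtype-mated females, at -0.49 and 0.55. The cwo call was lost with each repeat left out in turn, and the Clk call without repeat B or repeat C. The cwo difference went with its first hour: cwo averaged 123 CPM in virgins, 112 CPM in SP-null-mated and 127 CPM in wildtype-mated females at 12 h, but 75.6, 104 and 111 CPM at 0.5 h and 86.3, 145 and 134 CPM at 1 h. The single gene that differed from SP-null-mated females was Cipc, named here after its values were seen. Its virgin level was 56.6, 59.7 and 53.5 CPM at 12 h, against 27.8 to 30.3 CPM in the first hour. It averaged 57.6 CPM in SP-null-mated females at 12 h and 43.8 and 91.5 CPM at 0.5 h and 1 h. The adjusted p was 0.0456, and the call was lost with the replicate block and with each repeat left out.

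Of the 626 genes, 495 (5.49% of all) had a virgin change below the wildtype-mated one and 131 (1.45%) above it. Among the 626, 248 did not pass in virgins and rose in wildtype-mated females, 108 fell in virgins and did not pass in wildtype-mated females, and 56 fell in virgins and rose in wildtype-mated females. In these 3 counts the virgin calls are those of the fit of the 29 virgin libraries. The wildtype-mated calls and the 626 are those of the fit of all 87 libraries. Of the 25 described genes that passed, 7 did so with each repeat left out in turn: r, shf, CG3270, CG10513, CG3348, Srg1 and fit. fit averaged 160 ± 25.5 CPM in virgins at 12 h, 151 ± 13.5 CPM in SP-null-mated and 702 ± 108 CPM in wildtype-mated females (SD, n = 3 each). In the first hour it averaged 799 and 745 CPM in virgins at 0.5 h and 1 h, 522 and 531 CPM in SP-null-mated and 567 and 622 CPM in wildtype-mated females. Its log2 fold change was -2.27 in virgins, -1.80 in SP-null-mated and 0.24 in wildtype-mated females. Srg1 stood at 1.40, 1.23 and 9.73 CPM at 12 h in virgins, SP-null-mated and wildtype-mated females. CG3348 averaged 9.58, 11.1 and 81.5 CPM in the same order. shf rose to 47.3 CPM in virgins and 38.8 CPM in SP-null-mated females at 12 h, and stood at 15.1 CPM in wildtype-mated females.

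The list with the most members that differed was ribosome biogenesis. Its 23 genes counted 6 that rose in virgins, 11 in SP-null-mated and 21 in wildtype-mated females. For 17 of the 23 the virgin change was below the wildtype-mated one, against 5.49% of all genes, for 13 without repeat A, for 9 without repeat C and for none without repeat B. Nop60B, which encodes the enzyme that makes pseudouridine in ribosomal RNA, averaged 42.4 CPM in virgins, 39.4 CPM in SP-null-mated and 67.1 CPM in wildtype-mated females at 12 h. Of 33 aminoacyl-tRNA synthetase genes, 8 differed in the same direction, and none without repeat B.

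**Figure D5:**
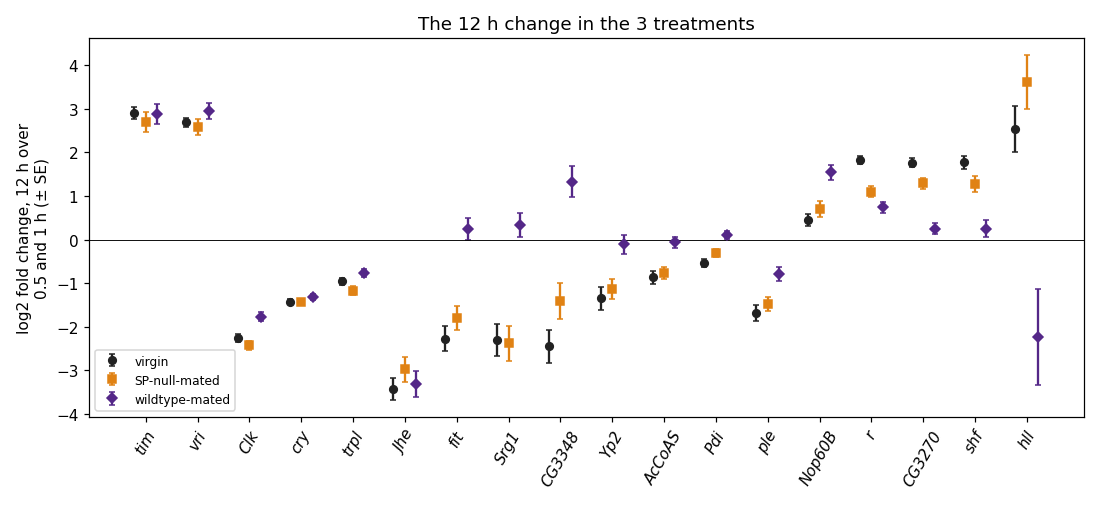
Points give the log2 fold change of 12 h over 0.5 h and 1 h with its SE for 18 genes, for virgins (fit of the virgin libraries), SP-null-mated and wildtype-mated females (fit of all libraries). The points of tim, vri, cry and Jhe lie together, while for fit, Srg1 and CG3348 virgins and SP-null-mated females lie below 0 and wildtype-mated females above it.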

How the data were processed

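Whole-number counts per gene were used as deposited; per the submitters' processing notes, Trimmomatic 0.39, STAR 2.7.5a and HTSeq 0.11.2 were used with builds dm6 and BDGP6. Libraries were stranded, per the labels' protocols, but whether counting used strand is not given in the sources used here; 11 of 98 described genes overlap another gene on the same strand and 32 on the other strand. The header of the gene table is 1 field short of its rows, so each name was taken for the next field. Columns were found for 87 of 90 samples, and the other 3 were not analysed here; the exon table was not used. The table held 9027 genes, each with at least 10 counts in some library, so a filter had been applied; 8977 identifiers matched a symbol.

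Counts were filtered with filterByExpr (minimum count 10, minimum total 15), scaled by TMM and fitted in edgeR 4.0.16 (R 4.3.3) with 1 mean per virgin time point (29 libraries), robust quasi-likelihood, and the contrast of 12 h with the mean of 0.5 h and 1 h. Treatments were compared in 1 fit of all 87 libraries. Where virgin CPM, fold changes or list counts stand beside mated ones, the virgin values are those of the fit and scaling of the virgin libraries. The mated values are those of the fit and scaling of all 87. DESeq2 1.42.0 was an alternative. On simulated counts with known changes the virgin 12 h test recovered 81.8% of changes of 0.5 on the log2 scale and 97% of changes of 1, over 9020 genes. It made 12 false calls among 197. For changes of 0.5 the test of the difference recovered 65.2% against SP-null-mated and 50% against wildtype-mated females. The simulated counts held no repeat effect. Only 66, 67 and 67 genes were changed, by 0.5, 1 and 2 on the log2 scale, a far smaller share than the 25.3% called in the data. The recovered shares and false calls therefore need not carry over to the data. Totals of 15411046 to 23574265 limit counting error only. Repeat letters mark whole repeats of the series, per its stated design, and so pair libraries; deviations of same-letter libraries correlated at -0.0572 to 0.424 over 9 pairs, 4 of them above 0.1, and the fit with repeats as a block was an alternative. Among the 9 pairs of libraries within a group of the comparison, no pair agreed within sampling noise (chi-square per degree of freedom of at least 17).

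The comparison and the gene lists were chosen with earlier results of these data known. The named genes are the 10 called genes of largest fold change each way with a mean of at least 2 log2 CPM and no overlap between groups, the 5 of smallest p each way, the core clock, and up to 4 called members of each list. List members whose call fell away without 1 repeat were mostly counted and not named. Cipc, DptB, Yp1 and Yp3 were added after their values were seen.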

Additional observations from a re-analysis of the deposited data

Results flagged for a closer look

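For 25 described genes the 12 h change in virgins differed from that in wildtype-mated females by edgeR's test of the difference in changes (adjusted p under 0.05), and for 1 gene from that in SP-null-mated females. The differences are given on the log2 scale, as the virgin minus the mated change. Above 0 were hll at 4.76, shf at 1.52, CG3270 at 1.51, r at 1.09, hry at 0.89, Gclm at 0.66 and cwo at 0.55. The largest differences below 0 were CG3348 at -3.77, DptB at -3.65, Srg1 at -2.63 and fit at -2.51. They were followed by CG10621 at -1.84, Hr4 at -1.66, CG10513 at -1.4, Yp2 at -1.23 and Nop60B at -1.1. Smaller ones were Apoltp at -0.96, Obp83cd at -0.91, Cyp4aa1 at -0.89, ple at -0.88, AcCoAS at -0.8, Pdi at -0.66, Elovl7 at -0.5, Clk at -0.49 and mnd at -0.36. The difference of Cipc from SP-null-mated females was 1.09. Of the 25, 7 kept their call with each repeat left out (r, shf, CG3270, CG10513, CG3348, Srg1 and fit). The DptB difference holds the 0.5 h virgin library of repeat B, at 415 CPM.

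In 4 described genes 1 of the 6 first-hour libraries lay far from the other 5 by Dixon's criterion, which by chance marks about 1 group in 20. Ugt35B1 was low in the 1 h library of repeat A, at 118 CPM. Pdh was high in the 0.5 h library of repeat B, at 1629 CPM. foxo was high in the 0.5 h library of repeat C, at 127 CPM. mRpS23 was low in the 1 h library of repeat B, at 5.09 CPM. Each of these 4 genes kept its call without any 1 of the 9 libraries.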

How the results depend on the processing

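The number of genes that changed between 12 h and the first hour in virgins (2280) was 171 at a minimum of 2-fold, 1606 to 2250 when 1 of the 9 libraries was left out and 1406 to 1518 without 1 repeat. It was 2418 with the replicate block, 2274 with RLE factors and 2222 with DESeq2. Of the changes 49.4% were rises, 44.8% with DESeq2, 40.3% without repeat A and 54% without repeat C. The 24 h count of 386 was 628 with the replicate block and 3 to 45 without 1 repeat. The single gene that differed from SP-null-mated females became 2 with DESeq2, 0 with the replicate block, 0 without both virgin first-hour libraries of repeat C and 0 with each repeat left out. The 626 genes that differed from wildtype-mated females were 81 to 462 without 1 repeat, and 744 with the block. Of the 98 described genes, 92 lost no call and kept their direction in all 21 alternatives. The block added the call of Yp1 and changed no other call among the 98. List members whose call fell away without 1 repeat were mostly left unnamed, so the 92 do not measure stability over all genes. The log2 fold change of cyc, not called, ran from -0.106 (without repeat A) to 0.0366 (without repeat B). It was also above 0 without repeat C (0.0314), without both first-hour libraries of repeat C (0.0281), without the 0.5 h library of repeat B (0.00389) or C (0.00155), the 1 h library of repeat C (0.0157) or the 12 h library of repeat B (0.0103). The settings without repeat C in the first hour alone, and those for list counts, were chosen after seeing the data. The causes were not tested. Depth limits genes near or under 1 CPM, such as Jhe and Hr4 at 12 h.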

Other observations

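Amino acid transporters and odorant binding proteins changed in both directions. Of 16 transporter genes, 3 rose (18.8%) and 4 fell (25%), against 12.5% and 12.8% of all genes. CG5535, a cationic amino acid transporter gene, stood at 32.7, 38.8 and 30.8 CPM at 12 h, against 19.8 to 26.6 CPM in the first hour, and path, which encodes an amino acid transporter of the lysosome, at 385, 426 and 392 CPM, against 267 to 345 CPM. gb, a glial cystine and glutamate transporter gene, stood at 16.5, 17.7 and 16.9 CPM at 12 h, against 20.2 to 26.1 CPM in the first hour. mnd, which carries leucine, stood at 26.9, 30.9 and 26.5 CPM at 12 h, against 36.9 to 38.3 CPM in the first hour. Of 24 odorant binding protein genes, 3 rose (12.5%) and 5 fell (20.8%). With 1 library left out 1 to 3 rose and 2 to 5 fell. Obp83cd stood at 2.51, 2.74 and 2.79 CPM at 12 h, against 5.56 to 9.59 CPM in the first hour, 2.71-fold lower. The counts of the following lists moved with single libraries. Of 64 nuclear genes of oxidative phosphorylation, 4 fell (6.25%, against 12.8% of all genes) and none rose. With 1 library left out 1 to 6 fell, and up to 3 rose (without the 12 h library of repeat B), while 7 fell with DESeq2 or with the replicate block. Of 13 oxidative stress genes, 1 rose (7.69%) and 4 fell (30.8%), and none of them fell without repeat C. With 1 library left out 1 to 3 rose and 3 to 5 fell. Of 13 sleep-regulating genes, 1 rose (7.69%) and 2 fell (15.4%), and with 1 library left out 0 to 1 rose and 1 to 2 fell. Of 9 peptidoglycan recognition genes, 1 fell (11.1%) and none rose, and with 1 library left out 1 to 2 fell and 0 to 1 rose.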
